A study of Mus musculus with 48 samples.

Results

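Ly6Clo MHCIIhi cells were compared with Ly6Chi MHCIIhi cells, 2 populations of immune cells sorted from mouse tumours that differ by name in the monocyte surface protein Ly6C and share a high level of MHC class II. The comparison took in every library whose title names one of these populations, with genotype as a covariate, after libraries that share a population, genotype and replicate number were added together. This gave 23 samples from 31 libraries, of 40 samples from 48 libraries in the whole series. All mice had received AOM DSS, the combination of a mutagen and a gut irritant used to raise tumours in an inflamed colon, and the cells were taken at day 85. In the samples labelled ctrl there were 8 Ly6Clo MHCIIhi and 3 Ly6Chi MHCIIhi replicates, and in those labelled ko there were 8 and 4. The ko mice lack the chemokine gene Ccl17 according to the series description, which also names ko mice housed with controls and ko mice housed apart. Housing is not given per sample, so the ko groups may mix both kinds. Strain, sex, age and what the ctrl mice carry are not given in the labels, and neither is the deleted part of Ccl17. Nothing in the labels says that the replicates were separate mice, so a p-value here sets a difference against the spread of these samples alone, part of which may be technical.

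Ly6C marks monocytes that have come from the blood. In the gut wall and in tumours such monocytes first gain MHC class II and then lose Ly6C as they become macrophages, and dendritic cells, which carry antigen to T cells, are also low in Ly6C and high in MHC class II. Macrophages of the gut take up dying cells and digest them in lysosomes, make the C1q chains of complement, and display peptides on MHC class II.

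The libraries counted the 3′ ends of poly(A) RNA, and a replicate held between 34362 and 243339 counts in Ly6Chi ctrl, 132799 and 290631 in Ly6Chi ko, 51630 and 867981 in Ly6Clo ctrl, and 39872 and 891461 in Ly6Clo ko. One Ly6Chi ctrl library, replicate 2, held 8409 counts and was left out. Levels are given as CPM, counts per 1000000 of the scaled total of the genes tested, and differences as log2 fold changes of Ly6Clo over Ly6Chi with their standard error (SE). The Ly6Chi ctrl replicate 1 stood apart from the other samples: its red cell transcripts summed to 337500 CPM, against 93.94 to 1748 in the other Ly6Chi samples and 49.83 to 14010 in Ly6Clo. Its neutrophil transcripts summed to 92070 CPM, against 1219 to 2987 in the other Ly6Chi samples and 1087 to 3043 in Ly6Clo. The main and gene list counts below were therefore also made without this sample, though not all of these are given. In bulk samples fewer cells of a type and less RNA per cell cannot be told apart.

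The Ly6Clo cells held more transcript of macrophage genes (Apoe, the C1q chains, Cd63, Cd81, Ms4a7), of lysosomal enzymes and of several dendritic cell genes (Ccl22, Ccr7, Cadm1, Fscn1). Of these, Ccl22, Cadm1 and Fscn1 passed the count filter through the Ly6Clo samples alone, so they could only come out as higher. Beside Ly6c2, whose difference was fixed by the sort, the Ly6Chi cells held more transcript of blood monocyte genes (Chil3, Plac8, Hp, Thbs1, Timp1). They also held more of some genes in a list of NF-kB targets and cytokines and of some that sense bacteria. Of 15 type I interferon response genes tested, 6 were lower and 1 higher in Ly6Clo, and several of these calls depended on single samples. Of 5541 genes tested, 460 (8.3%) were higher and 413 (7.45%) lower in Ly6Clo MHCIIhi cells at an adjusted p under 0.05 by edgeR's quasi-likelihood test, 15.8% in all. Among these, 236 of the higher and 150 of the lower genes differed by more than 2-fold, and the samples of the populations did not overlap in 43 and 13 of them. The median log2 fold change of all genes tested was 0.02. Without Ly6Chi ctrl replicate 1 the counts were 503 higher and 499 lower of 6122 tested, and 417 and 364 of them were also called with it. Counts of the gene lists below are to be read beside the 8.3% and 7.45% over all genes. A list count near these shares sets its list apart from no others. Lists share members, such as the C1q genes, Apoe, Cd63 and Thbs1, so their counts are not separate results. Genes too low for the count filter in 1 population were tested through the other, and could be called only in that direction. Lost calls are given below mainly for fits that leave out 1 sample, and other settings of the processing cost further calls.

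The sort was checked with Ly6c2, which encodes Ly6C on monocytes. Ly6c2 stood at 882, 623 and 368 CPM in the Ly6Chi ctrl samples and at 484, 418, 837 and 347 CPM in the Ly6Chi ko samples. In the 16 Ly6Clo samples it lay between 6.23 and 90.8 CPM with a median of 21.6. The lowest Ly6Chi sample was above the highest Ly6Clo sample, Ly6Clo ctrl replicate 3. The log2 fold change was −4.36 (SE 0.26, adjusted p = 1.62e-12) and was −4.19 without Ly6Chi ctrl replicate 1. The near-identical neighbour Ly6c1 had 4 counts over all Ly6Clo and 6 over all Ly6Chi samples and was not tested, and reads could be split between these copies.

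MHC class II was shared by name. Cd74, the chaperone of MHC class II molecules, lay between 12510 and 16180 CPM (median 14440) in Ly6Clo and between 4007 and 15420 CPM (median 11240) in Ly6Chi. The ranges overlapped, and the Ly6Chi ctrl samples, with a median of 7153 CPM, were below most of the Ly6Chi ko samples, with a median of 11900 CPM. Cd74 was higher in Ly6Clo by 0.51 (SE 0.15, adjusted p = 0.0152), a call that did not hold without Ly6Chi ctrl replicate 3 (adjusted p = 0.0603). The H2 genes that encode MHC class II itself were not analysed here.

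**Figure D1:**
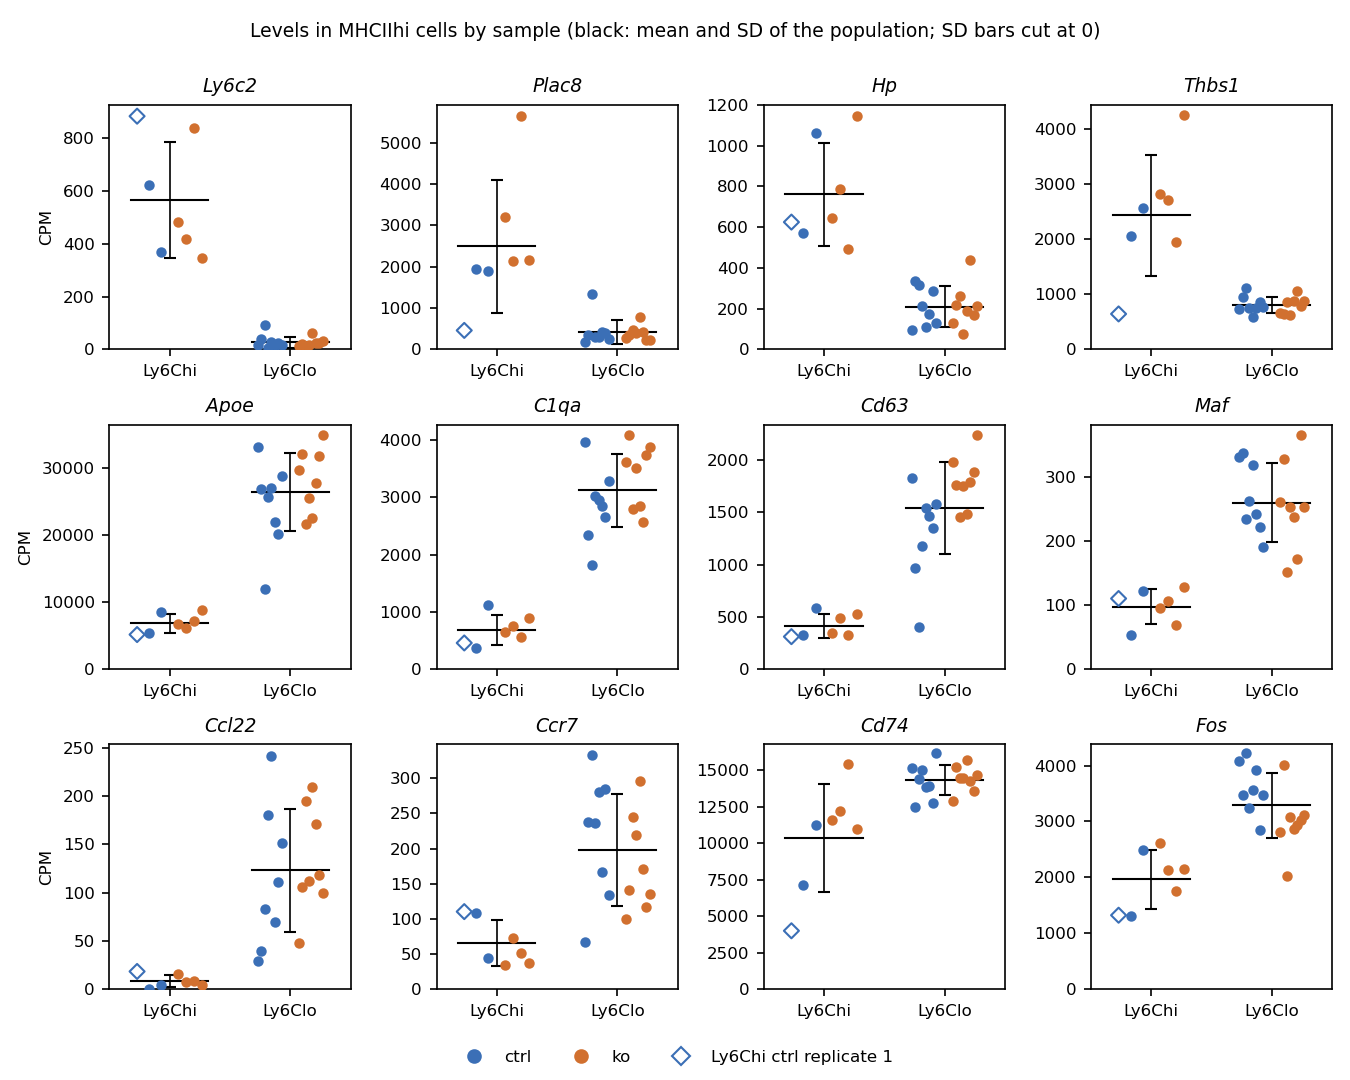
Levels of 12 genes in every sample, in CPM, by population, with ctrl and ko in separate colours, the mean and SD of each population in black and Ly6Chi ctrl replicate 1 as a diamond. Ly6c2, Apoe, C1qa, Maf and Ccl22 separate the populations with no overlap, while Cd74 and Fos overlap.

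Of 25 monocyte identity genes tested, 22 were lower and none higher in Ly6Clo, with a median log2 fold change of −1.43 against 0.02 over all genes, and 20 of 26 were lower without Ly6Chi ctrl replicate 1. The 22 include Ly6c2, the gene of the sort marker, whose lower level was fixed by the sort. Hp, which encodes the haemoglobin-binding protein haptoglobin, lay between 76.1 and 440.7 CPM (median 199.8) in Ly6Clo and between 495 and 1148 CPM (median 644) in Ly6Chi. The populations did not overlap, and Hp fell by 2.02 (SE 0.23, adjusted p = 5.59e-07). Chil3, a chitinase-like lectin, lay between 5.05 and 99.1 CPM (median 15.02) in Ly6Clo and between 81.3 and 777 CPM (median 162) in Ly6Chi. The highest Ly6Chi value was that of ko replicate 4, and 1 Ly6Clo sample, ctrl replicate 2, reached into the Ly6Chi range. Chil3 was lower by 3.60 on the log2 scale, as a fold change of −3.60 (SE 0.38, adjusted p = 1.28e-07).

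Thbs1, the matrix protein thrombospondin, lay between 590.5 and 1105 CPM (median 778) in Ly6Clo and between 643 and 4255 CPM (median 2569) in Ly6Chi. The lowest Ly6Chi value was that of ctrl replicate 1. Thbs1 fell by 1.58 (SE 0.18, adjusted p = 5.87e-07). Plac8, a small protein of monocytes and granulocytes, fell by 2.53 (SE 0.33, adjusted p = 2.78e-06) from a median of 2130 CPM in Ly6Chi to 350.0 CPM in Ly6Clo. Its highest Ly6Clo value, 1340 CPM in ctrl replicate 3, lay within the Ly6Chi range of 459.5 to 5645 CPM. F13a1, a clotting factor subunit, fell by 2.69, and Rhov, a small GTPase, fell by 2.41, with no overlap between the populations for Rhov (19.98 to 83.3 against 91.9 to 342 CPM). F10, clotting factor X, fell by 1.99 and Lrg1, a secreted leucine-rich glycoprotein, fell by 2.38. Of 5 genes of non-classical monocytes tested, 1 was called: Nr4a1, the nuclear receptor that these monocytes need, was lower by 0.37 on the log2 scale (fold change −0.37, adjusted p = 0.0385). That call was lost in 12 of the 23 fits that leave out 1 sample.

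Of 20 gut resident macrophage genes tested, 13 were higher and none lower in Ly6Clo, with a median of 1.20, and 13 of 20 were higher without Ly6Chi ctrl replicate 1. Apoe, the lipid carrier apolipoprotein E, lay between 11940 and 35020 CPM (median 26970) in Ly6Clo and between 5183 and 8882 CPM (median 6691) in Ly6Chi. Every Ly6Clo sample was above every Ly6Chi sample, and the log2 fold change was 1.95 (SE 0.16, adjusted p = 1.82e-09). Cd81, a tetraspanin of the cell surface, did not overlap either (369 to 1012 against 85.4 to 221 CPM) and was higher by 2.13 (SE 0.22, adjusted p = 8.9e-08). Cd63, a tetraspanin of lysosomes, was higher by 1.88 (SE 0.21, adjusted p = 3.41e-07), with medians of 1560 and 346.5 CPM and 1 Ly6Clo sample, at 401 CPM, inside the Ly6Chi range of 312.5 to 584 CPM. Dnase1l3, a secreted DNase, lay between 139 and 749 CPM in Ly6Clo and between 0 and 129 CPM in Ly6Chi, and was higher by 3.73 (SE 0.45, adjusted p = 7.41e-07). Maf, a transcription factor of resident macrophages, lay between 152 and 366 CPM in Ly6Clo and between 54.2 and 128 CPM in Ly6Chi, and was higher by 1.33 (SE 0.18, adjusted p = 5.64e-06).

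Some of the best known macrophage markers were chosen for mention after their values were seen. Adgre1, which encodes F4/80, was higher in Ly6Clo by 1.71 (adjusted p = 2.24e-06), with no overlap between 94.4 to 230 CPM and 18.4 to 80.9 CPM. Csf1r, the receptor for the macrophage growth factor, had medians of 1661 CPM in Ly6Clo and 1519 CPM in Ly6Chi and did not pass the test (log2 fold change 0.37, SE 0.15, adjusted p = 0.0788). Cx3cr1, the fractalkine receptor, had medians of 439.5 and 216 CPM and did not pass either (0.77, SE 0.29, adjusted p = 0.0711). Timd4, a receptor of long-lived resident macrophages, had 59 counts over all Ly6Clo and 2 over all Ly6Chi samples and was not tested.

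Among the genes with the largest differences, Ms4a7, a macrophage member of the Ms4a family of membrane proteins, was higher by 2.39 (SE 0.24, adjusted p = 3.88e-08), with 310 to 1086 CPM in Ly6Clo and 42.7 to 211 CPM in Ly6Chi. Vcam1, an adhesion molecule, was higher by 2.92 with no overlap (79.3 to 237.5 against 11.4 to 42.7 CPM). Adamdec1, a metalloprotease of gut macrophages, was higher by 2.94, Cd72, a lectin of B cells and macrophages, by 2.33, and Igf1, insulin-like growth factor, by 2.26. Syngr1, a vesicle protein, was higher by 2.46. Ms4a4c, a monocyte member of the Ms4a family, fell by 1.32, Ms4a8a, another member, fell by 1.84, and the family as a whole had 2 higher and 2 lower genes of 7 tested. Without Ly6Chi ctrl replicate 1 these were 1 and 3.

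Of 9 complement genes tested, 4 were higher and 1 lower in Ly6Clo, with a median of 0.26, and 4 were higher and 2 lower without Ly6Chi ctrl replicate 1. The higher ones were the chains of C1q, which binds dying cells, and C3ar1, the receptor for a complement fragment. C1qa lay between 1817 and 4082 CPM (median 2987) in Ly6Clo and between 379 and 1123 CPM (median 647) in Ly6Chi. The populations did not overlap for C1qa, C1qb or C1qc, and the log2 fold changes were 2.16 (SE 0.18), 1.94 (SE 0.16) and 2.18 (SE 0.19), with adjusted p-values of 2.07e-09, 1.86e-09 and 3.04e-09. C3ar1 was higher by 1.09 (adjusted p = 0.000193).

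Of 20 genes of dying-cell uptake, 10 were higher and 3 lower, with a median of 0.79. The 10 include the C1q chains again. The counts were 10 and 4 without Ly6Chi ctrl replicate 1. Stab1, a scavenger receptor for dying cells, was higher by 1.59 (SE 0.24, adjusted p = 2.87e-05), with medians of 327.5 CPM in Ly6Clo and 108 CPM in Ly6Chi. Thbs1 and Tgm2, the enzyme transglutaminase 2, were among the lower members. Tgm2 fell by 1.75 (SE 0.21, adjusted p = 5.87e-07), from a median of 3079 CPM in Ly6Chi to 726 CPM in Ly6Clo, and its lowest Ly6Chi value, 515 CPM, was that of ctrl replicate 1. Axl, a receptor kinase for dying cells, and its ligand Gas6 were named after their values were seen and were higher by 1.65 and 1.68 (adjusted p = 2.03e-06 and 0.00186). Mertk, the related receptor kinase and named in the same way, had means of 45.3 and 31.1 CPM and did not pass the test (0.75, adjusted p = 0.0838). Of 9 scavenger receptor genes, 4 were higher and 1 lower, and 3 and 2 without Ly6Chi ctrl replicate 1. Mrc1, the mannose receptor, was higher by 1.17, and Olr1, a receptor for oxidised lipoprotein, was lower by 1.43 on the log2 scale, as a fold change of −1.43 (adjusted p = 0.00982).

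Of 28 lysosomal genes tested, 21 were higher and none lower in Ly6Clo, with a median of 0.68. The count was 21 of 28 without Ly6Chi ctrl replicate 1 as well. Grn, the lysosomal protein progranulin, lay between 757 and 1776 CPM (median 1218) in Ly6Clo and between 478 and 704.5 CPM (median 644) in Ly6Chi. The populations did not overlap, and Grn was higher by 1.01 (SE 0.14, adjusted p = 4.61e-06). Man2b1, a mannosidase, was higher by 0.99 with no overlap. Ctsb, the protease cathepsin B, was higher by 0.96 (adjusted p = 3.41e-05), and Ctss, the protease that trims the chaperone Cd74, by 0.54 (adjusted p = 0.0212), a call that did not hold without Ly6Chi ctrl replicate 3 or ko replicate 4.

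Promoters of called genes were searched for TCACGTG, the E box of the CLEAR element through which TFEB drives lysosomal genes, on both strands and over 250 bases before to 50 bases after each start. The RefSeq promoter table, on GRCm38.p6, matched 17 of the 21 called lysosomal genes, and 3 of these 17 (17.6%) held the motif, against 4.29% of 27025 genes in the table and 8.67% of 4062 genes tested. The 3 genes, Ctsd (cathepsin D), Lgmn (legumain) and Ctsa (cathepsin A), were named after the search, and were higher in Ly6Clo by 1.10, 1.07 and 0.59. The call of Ctsa was lost in 2 of 12 other settings of the processing. One match each of Ctsd and Lgmn, before a start in the RefSeq table, is shown to let the motif be read in its surroundings. The motif and its reverse complement are in capitals. A gene with several starts has several windows, 32851 in all for the 27025 genes. The first lies at chr7:142387899-142387946 on the minus strand, 99 to 92 bases before the start, and the second at chr12:102439116-102439162 on the minus strand, 50 to 44 bases before it. Both windows lie within the GENCODE spans of these genes, whose 5′ ends are at 142388038 and 102439813, so the starts used are internal ones.
Ctsd: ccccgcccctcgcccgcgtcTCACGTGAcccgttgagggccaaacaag
Lgmn: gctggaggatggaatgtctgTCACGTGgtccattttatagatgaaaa
The capitals of Ctsd read the same on both strands and so match once on each. A match is a description of these letters and not of binding. Of the called monocyte identity genes, 1 of 17 in the table held TCACGTG.

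Of 21 genes of lipid handling, 9 were higher and none lower, with a median of 0.38. Lipa, the lysosomal lipase, was higher by 1.24 (SE 0.24, adjusted p = 0.000495) and Lpl, the lipase of lipoproteins, by 1.46 (SE 0.39, adjusted p = 0.00964). Scarb2, a lysosomal membrane receptor, was higher by 0.61 (adjusted p = 0.0133), a call lost without Ly6Chi ko replicate 4 (adjusted p = 0.0568). Without Ly6Chi ctrl replicate 1 the count was 8 higher and 1 lower of 21. Of 21 genes of tumour-associated macrophages, 6 were higher and 4 lower, and 6 and 8 of 22 without Ly6Chi ctrl replicate 1. Spp1, the matrix protein osteopontin, had medians of 631 CPM in Ly6Clo and 823 CPM in Ly6Chi and did not pass the test (−0.39, SE 0.21, adjusted p = 0.233).

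**Figure D2:**
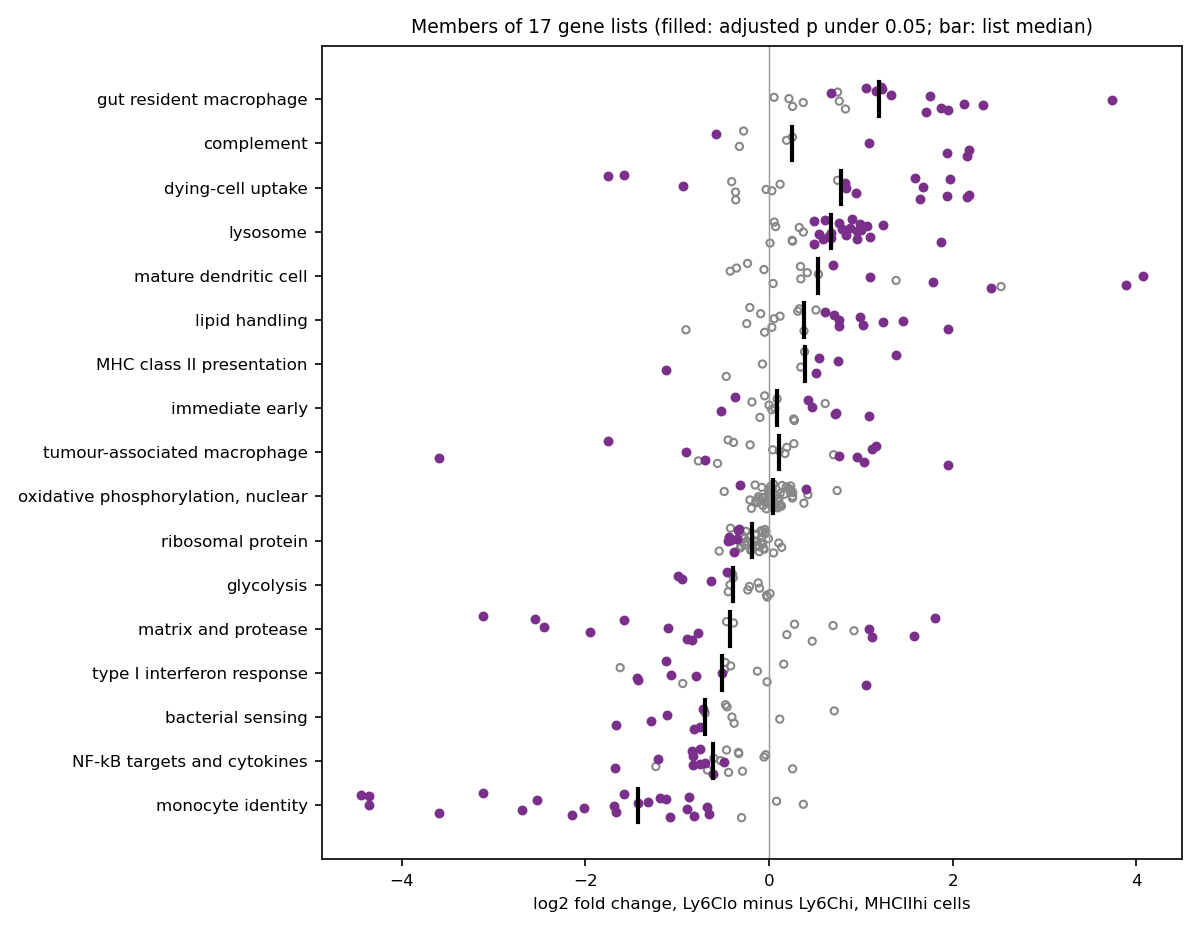
Log2 fold changes of Ly6Clo MHCIIhi over Ly6Chi MHCIIhi for the tested members of 17 gene lists, each point a gene and filled where it passed the test. Monocyte identity genes lie mostly left of 0, and gut resident macrophage and lysosome genes mostly right of it.

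Some dendritic cell genes were higher in Ly6Clo. Of 6 tested genes shared by dendritic cells, 4 were higher and 1, Cd24a, was lower, and none was lower without Ly6Chi ctrl replicate 1. Of 7 genes of cDC1, the type that presents to CD8 T cells, 3 were higher, and of 10 genes of cDC2, the type that presents to CD4 T cells, 2 were. Of 17 genes of mature, migrating dendritic cells 6 were higher and none lower, with a median of 0.54, and the counts of higher genes in these lists were the same without Ly6Chi ctrl replicate 1. Of 5 genes of plasmacytoid dendritic cells, the type that makes interferon, 1 was higher (Bst2) and 2 were lower (Irf7 and Ly6d), with a median of −0.62, and 1 was lower without that sample. Ccl22, Fscn1 and Cadm1 in these lists passed the count filter through the Ly6Clo samples alone, so they could only come out as higher.

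Ccl22, a chemokine of mature dendritic cells that binds the receptor CCR4, lay between 28.9 and 241 CPM (median 112) in Ly6Clo and between 0 and 18.4 CPM (median 7.59) in Ly6Chi. Every Ly6Clo sample was above every Ly6Chi sample, in ctrl (28.9 to 241 CPM) as in ko (47.7 to 209 CPM). Ccl22 was higher by 3.89 (SE 0.54, adjusted p = 8.44e-06). Ccr7, the receptor that leads dendritic cells to lymph nodes, was higher by 1.79 (SE 0.32, adjusted p = 0.000216), with medians of 196 and 51.2 CPM and overlapping ranges. Fscn1, the actin bundler of mature dendritic cells, had 370 counts over all Ly6Clo and 3 over all Ly6Chi samples. Relative to the pooled totals this was a ratio of 21.1, with an exact 95% counting interval of 7.15 to 103. Cadm1, an adhesion molecule of cDC1, had 438 and 4 counts, a ratio of 18.7 (7.25 to 69.0), and these intervals cover counting error only. On the scale of a fit over all 4 populations, mean Cadm1 was alike in Ly6Clo MHCIIlo and Ly6Clo MHCIIhi cells, at 47.9 and 48.0 CPM. Itgax, which encodes CD11c, was also close, at 295 and 311 CPM. Ccl22 (9.22 and 115 CPM) and Fscn1 (2.43 and 41.2 CPM) were lower in the MHCIIlo cells.

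Batf3, a transcription factor that cDC1 need, was higher by 1.38 (SE 0.29, adjusted p = 0.00119) and Itgax, which encodes CD11c, by 0.67 (adjusted p = 0.00526). Wdfy4, which cDC1 need to present cell-borne antigen, was higher by 1.09, and the cDC2 genes Plet1 and Cd209a, a surface protein and a lectin, by 1.20 and 1.25. These 3 calls were each lost without Ly6Chi ctrl replicate 4 or ko replicate 4, and that of Wdfy4 also without Ly6Chi ko replicates 1 or 3 or Ly6Clo ko replicate 4. Ebi3, a subunit shared by some cytokines of the interleukin-12 family, was higher by 1.10 (SE 0.23, adjusted p = 0.0012). Other defining genes of dendritic cells were too low to test and were named after their counts were seen: Zbtb46, a transcription factor of these cells, had 71 and 1 counts, and Flt3, their growth factor receptor, 106 and 8. The cDC1 receptors Xcr1 and Clec9a had 8 and 2 counts and 3 and 1 counts. What part dendritic cells in the Ly6Clo gate have in these differences was not tested.

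Ccl17, the gene removed in the ko mice and the other ligand of CCR4, was low in most samples. In the Ly6Clo ctrl samples Ccl17 stood at 828 CPM in replicate 4, 354.5 in replicate 5, 119 in replicate 2, 110 in replicate 6, and 0 to 9.83 in the other 4. In the Ly6Clo ko samples it lay between 0 and 7.18 CPM, and in the Ly6Chi samples between 0 and 36.8 CPM, the highest being 2 counts in ctrl replicate 1. Across both genotypes the log2 fold change was 2.53 (SE 1.54, adjusted p = 0.294). Because the deleted part of the gene is not given, 3′ counts in ko samples do not check the labels. Ccr4, the receptor for both chemokines, had 3 counts over all Ly6Clo and 0 over all Ly6Chi samples.

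Among genes of MHC class II presentation, 4 of 9 tested were higher and 1 lower. March1, the ubiquitin ligase that removes MHC class II from the surface, was higher by 1.39 (adjusted p = 0.0039), and Cd80, a costimulator of T cells, was lower by 1.12 on the log2 scale, as a fold change of −1.12 (adjusted p = 0.00497). The call of Cd80 was lost in 3 of 11 other settings of the processing. Of 7 genes of MHC class I presentation 1 was higher, Canx, the chaperone calnexin, by 0.59.

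In a list of NF-kB targets, subunits and cytokines, 10 of 22 genes tested were lower in Ly6Clo and none higher, with a median of −0.61. Without Ly6Chi ctrl replicate 1 the count was 13 of 22, and with libraries matched by barcode class it was 7 of 22. Osm, the cytokine oncostatin M, lay between 245 and 750 CPM (median 527) in Ly6Clo and between 147.0 and 2121 CPM (median 1052) in Ly6Chi, where the lowest value was that of ctrl replicate 1. Osm fell by 1.21 (SE 0.23, adjusted p = 0.000392). Nfkb1 and Nfkb2, which encode subunits of NF-kB, fell by 0.83 and 0.76, and Traf1, an adaptor of TNF receptors, fell by 0.75, a call that did not hold without Ly6Chi ctrl replicate 4 (adjusted p = 0.0624).

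Among genes that sense bacteria, 6 of 13 were lower and none higher, with a median of −0.70. The lower count was 7 of 14 without Ly6Chi ctrl replicate 1. Clec4e, a receptor for mycobacterial lipid and dead cells, fell by 1.67 (SE 0.26, adjusted p = 3.29e-05), Tlr2, a receptor for bacterial lipoproteins, fell by 0.71, Cd14, the co-receptor for endotoxin, fell by 0.82, and Irak3, a brake on these receptors, fell by 1.28. Cd14 lost its call without Ly6Chi ctrl replicate 4 (adjusted p = 0.0508). Of 9 genes of the interleukin-1 family, 1 was higher and 1 lower, and 1 and 5 of 10 without Ly6Chi ctrl replicate 1. Il18bp, which binds interleukin-18, was higher by 1.59, and Il1rn, the interleukin-1 receptor antagonist, fell by 0.90, a call lost without Ly6Chi ctrl replicate 4 (adjusted p = 0.0828).

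Of 15 type I interferon response genes, 6 were lower and 1 higher, with a median of −0.52. The counts were 5 and 1 of 16 without Ly6Chi ctrl replicate 1. Ifi27l2a, an interferon-induced mitochondrial protein, lay between 339 and 886 CPM (median 589) in Ly6Clo and between 404 and 2814 CPM (median 1599) in Ly6Chi, and fell by 1.44 (SE 0.21, adjusted p = 1.96e-05). Irf7, a transcription factor of the response, fell by 0.80, and Ly6e, an interferon-induced surface protein, fell by 0.52. These calls were lost without Ly6Chi ctrl replicate 4 or ko replicate 3 for Irf7 and without Ly6Chi ctrl replicate 3 for Ly6e. The 1 higher gene was Bst2, which tethers virus particles to the cell, at a median of 277 CPM in Ly6Clo and 135.5 CPM in Ly6Chi (1.06, SE 0.18, adjusted p = 9.35e-05). When the libraries were matched by barcode class, the count of lower genes was 2 of 14, with a median of −0.51.

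The interferon motif GAAANNGAA was searched in the same way. It was found in 9.76% of the 27025 genes of the table and in 9.21% of those tested, and in 3 of the 4 called interferon genes with a promoter there, Bst2, Isg15 and Ifi205. Isg15, a ubiquitin-like modifier, and Ifi205, a DNA sensor with close relatives among which reads could be split, were named after the search and were lower by 1.07 and 1.43 on the log2 scale, as fold changes of −1.07 and −1.43 (adjusted p = 0.0407 and 0.0424). Of the fits that leave out 1 sample, the call of Isg15 was lost in 11 of 23 and that of Ifi205 in 10 of the 21 in which it was tested. The windows of Isg15 and Bst2 are shown because the same letters stood before a gene that was lower and a gene that was higher, with overlapping matches run together in capitals. The Isg15 window lies at chr4:156200856-156200916 on the minus strand, its matches 78 to 58 bases before the start, and the Bst2 window at chr8:71537568-71537622 on the minus strand, 130 to 116 bases before it.
Isg15: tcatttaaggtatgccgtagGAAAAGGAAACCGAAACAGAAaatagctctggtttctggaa
Bst2: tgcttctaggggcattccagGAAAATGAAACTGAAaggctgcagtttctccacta
The C/EBP motif TTGCNNCAA was in none of the called promoters of the lysosomal, interferon and monocyte lists that had an entry, against 2.38% of genes in the table and 1.85% of those tested.

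Chemokines that attract monocytes did not move together: 3 of 7 were higher and 1 lower. Ccl12, a ligand of CCR2, lay between 131 and 739 CPM (median 312) in Ly6Clo and between 27.1 and 82.6 CPM (median 59.8) in Ly6Chi, with no overlap. Ccl12 was higher by 2.63 (SE 0.35, adjusted p = 4.08e-06), Ccl7 by 1.40 and Ccl8 by 1.04. The call of Ccl7 was lost in 2 of 12 other settings of the processing. The call of Ccl8 was lost without any of Ly6Chi ctrl replicate 3 and ko replicates 1, 2 and 4. Ccl24, a ligand of the eosinophil receptor, fell by 1.20 (adjusted p = 0.0163), a call lost without Ly6Chi ctrl replicate 4 or ko replicate 2 (largest adjusted p 0.0842). Of 10 inflammatory chemokines 1 was higher, Ccl22, and 1 was lower, Cxcl2, a neutrophil attractant, and 2 were lower without Ly6Chi ctrl replicate 1. These counts are near the 8.3% higher and 7.45% lower of all genes tested. Cxcl2 fell by 0.83 (adjusted p = 0.0436), a call lost in 17 of the 23 fits that leave out 1 sample.

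Of 16 chemokine and growth factor receptors, 4 were lower and 1 higher, and 7 and 1 without Ly6Chi ctrl replicate 1. Ccr2, which brings monocytes out of the marrow, fell by 1.08 (SE 0.24, adjusted p = 0.00208), with medians of 91.6 CPM in Ly6Clo and 202 CPM in Ly6Chi. Its lowest Ly6Chi value, 0 CPM, overlapped the Ly6Clo range. Ltb4r1, the leukotriene B4 receptor, fell by 2.05 (SE 0.33, adjusted p = 4.95e-05), and Fpr2, a receptor for formyl peptides, fell by 1.11, a call lost without Ly6Chi ctrl replicate 4 (adjusted p = 0.0529).

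Of 12 genes of prostaglandin and leukotriene synthesis tested, 3 were higher and 1 lower in Ly6Clo. Ptgs1, which starts prostaglandin synthesis, was higher by 2.56 (SE 0.30, adjusted p = 5.87e-07), with medians of 162 and 25.6 CPM. Hpgds, which makes prostaglandin D2, was higher by 2.21 and Pla2g7, a phospholipase, by 0.50. Alox5ap, which leukotriene synthesis needs, fell by 1.25 (SE 0.14, adjusted p = 3.41e-07), from a median of 1096 CPM in Ly6Chi to 431 CPM in Ly6Clo.

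Of 20 matrix and protease genes, 9 were lower and 4 higher, and 11 and 4 without Ly6Chi ctrl replicate 1. Timp1, an inhibitor of metalloproteinases, lay between 75.5 and 278 CPM (median 157) in Ly6Clo and between 91.9 and 1546 CPM (median 1148) in Ly6Chi. The lowest Ly6Chi value was that of ctrl replicate 1. Timp1 fell by 2.55 (SE 0.25, adjusted p = 3.27e-08). Vcan, the proteoglycan versican, fell by 3.11, and Plaur, the urokinase receptor, fell by 1.10. Mmp12, macrophage elastase, was higher by 1.12 (adjusted p = 0.00443). Mmp2, gelatinase A, is not in the list and was higher by 2.59 with no overlap (22.7 to 141 against 0 to 18.4 CPM).

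In the TGF-beta and interleukin-10 list, 2 of 14 genes were higher and 3 lower, and 2 and 5 without Ly6Chi ctrl replicate 1. The receptors Tgfbr1 and Tgfbr2 were higher by 1.22 and 1.06 (adjusted p = 0.00146 and 0.00486), and the ligand Tgfb1 fell by 0.96 (adjusted p = 0.000238). Tgfb1 had medians of 192 CPM in Ly6Clo and 429 CPM in Ly6Chi. Among 7 Fc receptors, 2 were higher: Fcgrt, which recycles antibody, by 1.75 and Fcrls, an Fc receptor-like protein, by 2.23.

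Among iron and haem genes, 3 of 11 were higher and 2 lower, and 4 and 1 without Ly6Chi ctrl replicate 1. Slc40a1, the iron exporter ferroportin, was higher by 2.40 (adjusted p = 0.00242), Trf, the iron carrier transferrin, by 1.09 (adjusted p = 1.68e-05) and Cp, the copper enzyme ceruloplasmin, by 2.13. Slc11a1, which pumps metal out of the phagosome, fell by 0.71 (adjusted p = 0.000981).

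Of 15 glycolysis genes, 4 were lower and none higher, with a median of −0.39. The lower count was 6 of 15 without Ly6Chi ctrl replicate 1. Slc16a3, which exports lactate, lay between 151 and 265 CPM (median 207) in Ly6Clo and between 147.0 and 542 CPM (median 430) in Ly6Chi. Slc16a3 fell by 0.99 (SE 0.15, adjusted p = 1.63e-05), Pfkp and Pfkl, forms of phosphofructokinase, fell by 0.95 and 0.63, and Tpi1, an isomerase of the pathway, fell by 0.46. The call of Pfkl was lost without Ly6Chi ctrl replicate 4 or ko replicate 1, and that of Tpi1 without Ly6Chi ctrl replicate 4 or ko replicates 1 or 2. Of 54 nuclear genes of oxidative phosphorylation, 1 was higher and 1 lower, with a median of 0.04, and 2 and 0 of 55 without Ly6Chi ctrl replicate 1. Of 41 ribosomal protein genes 7 were lower and none higher, with a median of −0.19. The lower count was 6 of 43 without Ly6Chi ctrl replicate 1. Rps14, Rpl8 and Rpl13 fell by 0.44, 0.42 and 0.38 (adjusted p = 0.00243, 0.00305 and 0.00731). These calls were lost in 3, 4 and 5 of 12 other settings of the processing. Rplp0, a protein of the large subunit, fell by 0.35 with no overlap (1340 to 1795 against 1826 to 2255 CPM), a call lost without Ly6Chi ctrl replicate 4 (adjusted p = 0.0598). The call of Rplp0 was lost in 4 of the 12 other settings too.

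Of 32 myeloid transcription factors, 8 were higher and 5 lower, and 9 and 6 without Ly6Chi ctrl replicate 1. Cebpa, a factor of the myeloid lineage, was higher by 1.39 with no overlap (99.1 to 249 against 0 to 75.9 CPM, adjusted p = 5.95e-05). Rara, a receptor for retinoic acid, fell by 1.09. Of 17 immediate early genes 5 were higher and 2 lower, and 6 and 2 without Ly6Chi ctrl replicate 1. Fos, a part of the AP-1 factor, lay between 2021 and 4231 CPM (median 3177) in Ly6Clo and between 1301 and 2612 CPM (median 2126) in Ly6Chi, and was higher by 0.72 (SE 0.15, adjusted p = 0.000996). Egr1, Fosb and Klf6, factors of the same early response, were higher by 1.09, 0.73 and 0.42. The call of Klf6 was lost in 2 of 12 other settings of the processing. Of 11 heat shock genes 2 were higher, and 7 were without Ly6Chi ctrl replicate 1. The 2 were Bag3 and Dnajb1, partners of the chaperone Hsp70, which were higher by 1.31 and 0.97. The call of Bag3 was lost without Ly6Chi ko replicates 1 or 4, and that of Dnajb1 in 13 of the 23 fits that leave out 1 sample. Of 11 proliferation genes none was called by edgeR, and 3 of 12 were higher without that sample.

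Genes of other cell types were followed because a sort gate can let them in. Of 14 neutrophil genes, 10 were lower in Ly6Clo, and 5 of 14 without Ly6Chi ctrl replicate 1. Camp and Ngp, granule proteins of neutrophil precursors, stood at 10790 and 8290 CPM in that sample. Their log2 fold changes of −6.98 and −6.78 became −3.03 and −2.27 without it. G0s2, a lipase inhibitor abundant in neutrophils, went from −2.29 to −1.31, and Wfdc21, a small secreted protein, from −4.22 to −1.55, where its call was lost (adjusted p = 0.0531). Hdc, which makes histamine, was lower by the test with that sample (−1.97, adjusted p = 0.000451) and without it (−1.82, adjusted p = 0.00108), with medians of 30.7 CPM in Ly6Clo and 136 CPM in Ly6Chi.

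All 4 red cell genes tested, Hba-a1, Hba-a2, Hbb-bs and Hbb-bt, were lower in Ly6Clo by the test and none was without Ly6Chi ctrl replicate 1, where their log2 fold changes were 0.88, 0.83, 0.44 and 0.83. Reads could be split between these near-identical copies. Cd24a, a surface protein of many cell types, and Ly6d, a marker of early B and plasmacytoid lineages, lost their calls without that sample (−1.82 to −0.68 and −2.16 to −1.43). Of 7 genes of B and plasma cells 3 were lower, and 2 of 8 without Ly6Chi ctrl replicate 1. Their list summed to between 371 and 33470 CPM in Ly6Clo and between 939 and 16210 CPM in Ly6Chi. Sdc1, a plasma cell marker that macrophages also hold, fell by 1.48 (adjusted p = 0.000118). Of 6 T cell genes 1 was lower, Cd3g, a chain of the T cell receptor complex, by 1.13 on the log2 scale (fold change −1.13, adjusted p = 0.0216). Of 12 epithelial genes none was called, and their list summed to between 232 and 2346 CPM in Ly6Clo and between 110 and 6855 CPM in Ly6Chi. None of the 4 eosinophil and mast cell genes tested and neither fibroblast nor endothelial gene was called. The part of these cells in the other differences was not tested.

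**Figure D3:**
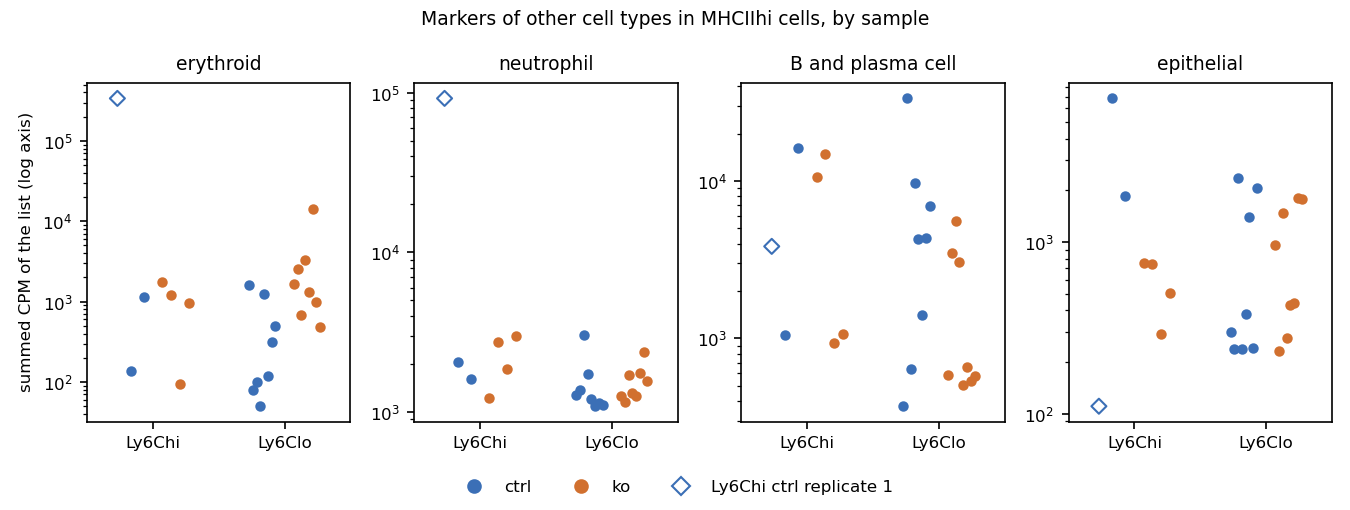
Summed levels of the red cell, neutrophil, B and plasma cell and epithelial lists in every sample, in CPM on a log axis, by population and genotype. Ly6Chi ctrl replicate 1 lies at 337500 CPM for red cells and 92070 CPM for neutrophils, above every other sample.

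The genotypes were compared next, to see whether the difference between the populations is the same in ctrl and ko. The Ly6Chi ctrl libraries used all had barcodes with 1 G or C, and the Ly6Chi ko libraries had 3 to 5. In Ly6Chi, and so in the interaction, genotype and barcode cannot be told apart. The interaction of population and genotype passed the test for 5 of 5541 genes (0.0902%), while 453 had an unadjusted p under 0.05. The 5 were the haemoglobin genes Hba-a1, Hba-a2, Hbb-bs and Hbb-bt, with interactions of 9.25, 9.34, 8.88 and 9.37 on the log2 scale (ko minus ctrl), and Basp1, a membrane protein, with −1.15. None passed without Ly6Chi ctrl replicate 1, and without Ly6Chi ctrl replicate 4 there were 89 higher and 125 lower. Basp1 lay between 239 and 463 CPM in the Ly6Chi ctrl samples and between 710 and 931 CPM in the Ly6Chi ko samples, against medians of 547 and 534 CPM in Ly6Clo ctrl and ko. In ctrl samples alone 56 of 4180 genes (1.34%) differed between the populations, 28 in each direction, and in ko samples alone 790 of 4564 (17.3%), 364 higher and 426 lower. The ctrl fit rested on 3 Ly6Chi samples, 1 of which stood apart, so these shares cannot be read as a weaker difference in ctrl.

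The same contrast of Ly6C was available in cells low in MHC class II, in samples that the comparison above did not use. There 835 genes (19.3%) were higher and 788 (18.2%) lower in Ly6Clo, of 4336 tested. Of 4248 genes tested in both, 366 were higher among MHCIIhi and 818 among MHCIIlo cells and 264 were shared, 72.1% of the first list and 32.3% of the second. For lower genes the lists held 391 and 768 with 294 shared, 75.2% and 38.3%. Genes called in opposite directions numbered 3 and 7.

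**Figure D4:**
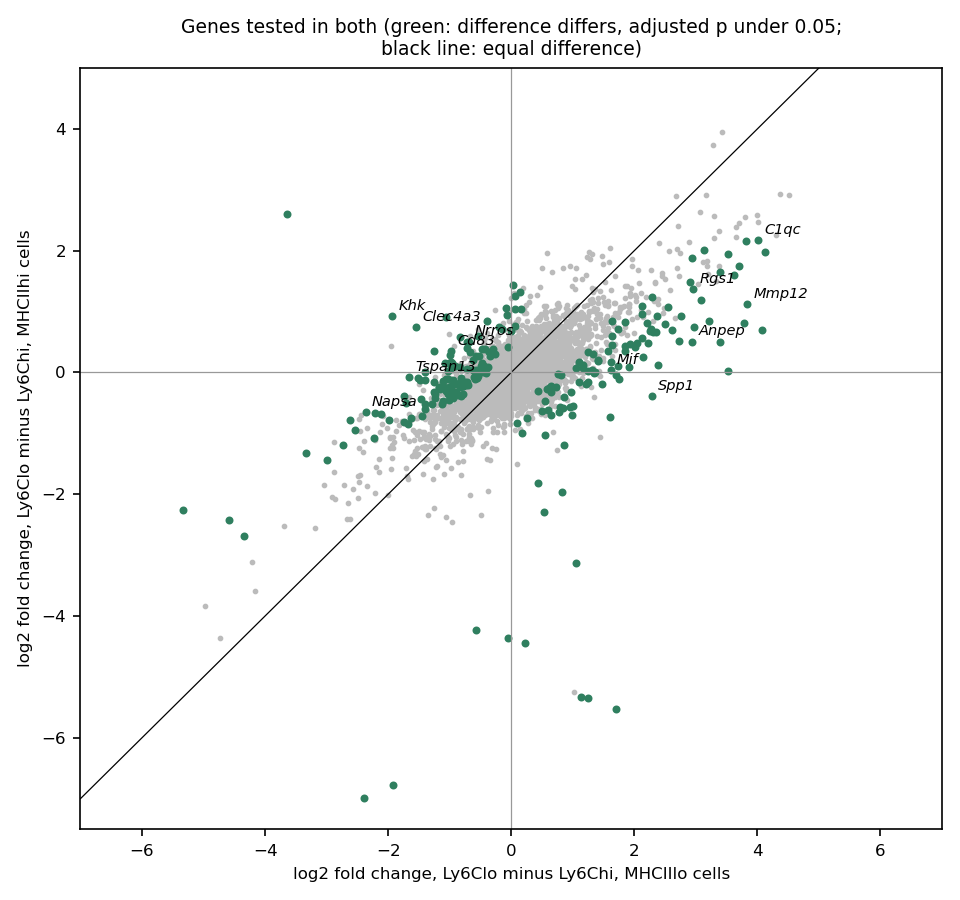
Log2 fold changes of Ly6Clo over Ly6Chi for the 4248 genes tested in both, MHCIIhi cells on one axis and MHCIIlo cells on the other, with the 233 genes that passed the test of the difference in green. Most points called in either lie in the quadrants where the signs match.

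The difference itself was tested as an interaction over all 4 populations, and 128 (2.12%) of 6032 genes had a more positive and 127 (2.11%) a more negative difference in MHCIIhi cells. With DESeq2 size factors in place of TMM the split was 86 and 158. C1qc stood at 149.9 ± 51.5 CPM (SD, n = 8) in Ly6Chi MHCIIlo, 569 ± 208 (n = 7) in Ly6Chi MHCIIhi, 2243 ± 465.9 (n = 8) in Ly6Clo MHCIIlo and 2599 ± 595 (n = 16) in Ly6Clo MHCIIhi, on the scale of this fit. The Ly6Clo populations were alike in mean and the Ly6Chi populations were not, and the log2 fold change of C1qc was 2.18 in MHCIIhi against 4.01 in MHCIIlo cells (interaction −1.75, SE 0.26, adjusted p = 2.91e-05). C1qa and C1qb had interactions of −1.57 and −1.50. Rgs1, a regulator of chemokine signalling, differed by 1.37 in MHCIIhi and 2.96 in MHCIIlo cells (interaction −1.50, adjusted p = 3.32e-05).

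Spp1, the osteopontin gene, stood at 1635 ± 361 CPM in Ly6Clo MHCIIlo cells, against 359 ± 90.9 in Ly6Chi MHCIIlo, 594 ± 160 in Ly6Clo MHCIIhi and 758 ± 380 in Ly6Chi MHCIIhi. The fold change of Spp1 was −0.39 in MHCIIhi and 2.29 in MHCIIlo cells (interaction −2.59, SE 0.29, adjusted p = 7.23e-08). Mif, a cytokine of macrophages, had fold changes of 0.04 and 1.62 (interaction −1.50, adjusted p = 1.96e-05), Mmp12 of 1.12 and 3.83 (interaction −2.63, adjusted p = 7.22e-05), and Anpep, an aminopeptidase, of 0.50 and 2.94 (interaction −2.35, adjusted p = 8.65e-05). Hdc was lower in Ly6Clo among MHCIIhi cells (−1.97) and higher among MHCIIlo cells (0.83), with an interaction of −2.71 (adjusted p = 0.000144). Glycolysis genes, lower in 4 of 15 among MHCIIhi cells, were higher in 5 and lower in 2 of 15 among MHCIIlo cells. The interactions of Slc16a3, Tpi1 and Pfkl were −1.09, −0.92 and −1.05 (adjusted p = 0.00348, 0.00381 and 0.0196).

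In the other direction, Napsa, a protease of the endosome, was at its highest in Ly6Chi MHCIIlo cells, at 415 ± 94.6 CPM against 74.7 ± 16.9 in Ly6Clo MHCIIlo. The fold change of Napsa was −0.66 in MHCIIhi and −2.37 in MHCIIlo cells (interaction 1.80, SE 0.24, adjusted p = 6.47e-06). Cd83, a glycoprotein that stabilises MHC class II on the surface, stood at 1120 ± 280 CPM in Ly6Clo MHCIIhi, 868 ± 158 in Ly6Chi MHCIIhi, 702 ± 217 in Ly6Chi MHCIIlo and 328 ± 81.9 in Ly6Clo MHCIIlo. The fold change of Cd83 was 0.35 (adjusted p = 0.107) in MHCIIhi and −0.98 in MHCIIlo cells (interaction 1.42, adjusted p = 0.000159). Nrros, which holds latent TGF-beta at the surface, was higher in Ly6Clo among MHCIIhi cells (0.50) and lower among MHCIIlo cells (−0.69), with an interaction of 1.28 (adjusted p = 0.000106). The first of these calls of Nrros was lost without Ly6Chi ko replicate 1 (adjusted p = 0.0731). Clec4a3, a lectin receptor, Khk, the fructose kinase, and Tspan13, a tetraspanin, had interactions of 2.38, 2.97 and 1.67 (adjusted p = 0.00011, 0.00011 and 0.000159).

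**Figure D5:**
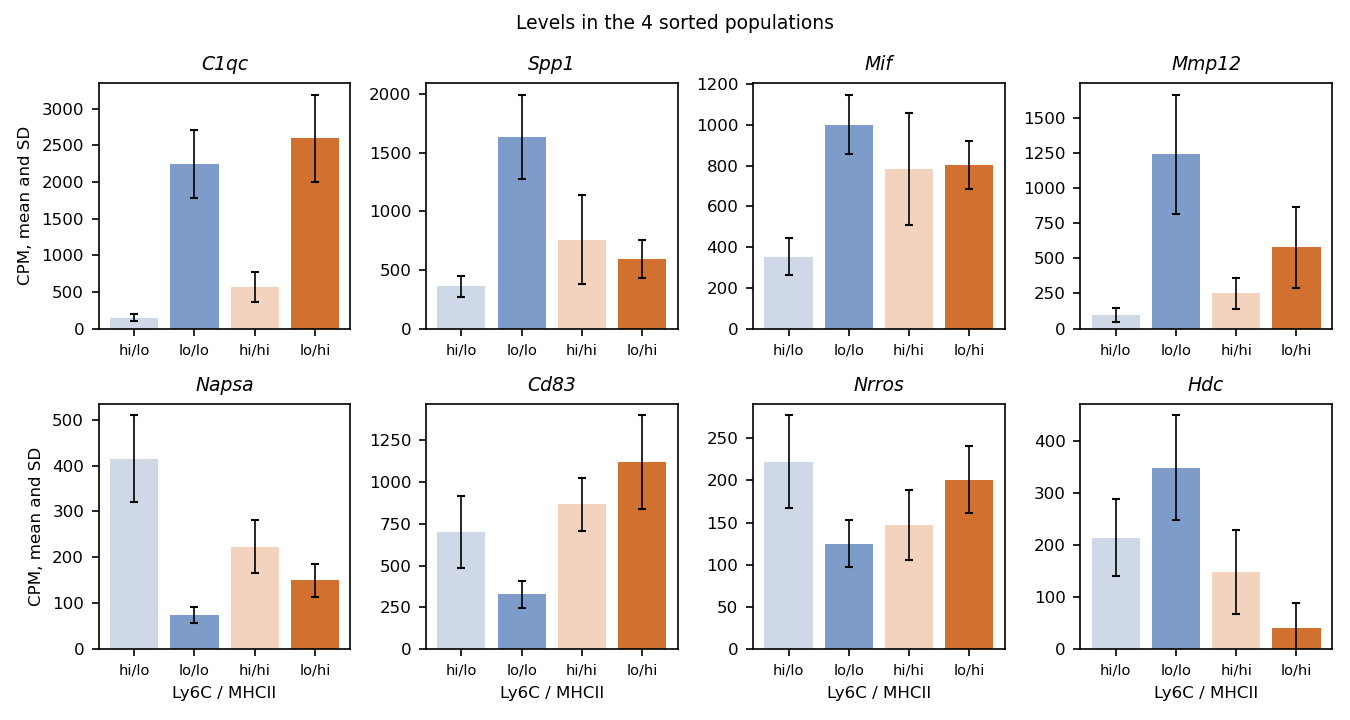
Mean and SD of C1qc, Spp1, Mif, Mmp12, Napsa, Cd83, Nrros and Hdc in the 4 sorted populations, in CPM on the scale of the fit over all of them. Spp1 is highest in Ly6Clo MHCIIlo cells and Napsa in Ly6Chi MHCIIlo cells, while C1qc is similar in both Ly6Clo populations.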

How the data were processed

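The samples were 3′ poly(A) RNA libraries of sorted cells, and the deposited table holds whole-number counts per gene and library on GRCm38, from the authors' processing with R 3.4.4 and DESeq2 1.18.1 per the submitters' processing notes. Which aligner and counter were used and whether counts are reads or unique molecules are not stated in the labels or the file header. A row with no gene name (127 counts, 0.000967%) was left out, as was the 1 library under 0.1 of the median total (28006 counts). Libraries of a replicate were added. Genes were filtered (edgeR filterByExpr, minimum count 10, minimum total 15), scaled by TMM and tested with edgeR 4.0.16's quasi-likelihood test in R 4.3.3 (limma 3.58.1), genotype as covariate, with Benjamini-Hochberg adjustment over all genes tested and a threshold of 0.05. Alternatives were DESeq2 1.42.0 and its size factors, other filters, libraries left out, barcode classes (3 or more G or C among the 6 bases), a replicate block and each sample left out. The fitting code was tested on simulated data.

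Named genes were the sort markers, up to 12 per direction with the largest change among called genes reaching 50 CPM in the higher population and lying on the called side of the other population's mean in all Ly6Chi and at least 0.75 of the Ly6Clo replicates, up to 4 called members per list with the smallest p (2 where none was called), up to 6 per direction of each interaction, and Ccl17, Ccl22 and Ccr4. Not every gene the rule names is reported here. Other genes are said to have been chosen after their values were seen. The gene lists and this comparison were chosen with earlier results of these data known. Replicate numbers do not pair the samples by any label. The depth of 34362 to 891461 counts per replicate limits what can be seen in low genes, and intervals cover counting error only.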

Additional observations from a re-analysis of the deposited data

Results flagged for a closer look

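For 61 of 486 pairs of a gene and a group examined, over 162 genes, 1 sample lay far from the others of its group, with a gap to its nearest neighbour above Dixon's critical value. Chance alone flags about 1 in 20 groups if values are normally spread, and the genes of a sample are not independent. Whether CPM at this depth are so spread was not tested, so 61 of 486 cannot be read as an excess. Of the 61 samples 54 were at the high end and 7 at the low end.

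Ly6Clo ctrl replicate 3 was far from the other Ly6Clo ctrl samples in 19 genes. It was high in the monocyte genes Ly6c2 (90.83 CPM), Plac8 (1340), Vcan (30.28), Clec4e (719.1), Ltb4r1 (635.8) and Alox5ap (817.5). It was also high in Mmp12 (1665), Hdc (227.1), Pfkp (295.2), Irak3 (159.0), Olr1 (189.2), Ly6e (1249), Tpi1 (575.2), Ccl8 (1491), Cxcl2 (19270), Mif (1279) and Isg15 (287.6), and low in Mrc1 (68.12) and Pecam1 (0). Without it 508 genes were higher and 482 lower in Ly6Clo.

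Ly6Clo ko replicate 6, the shallowest Ly6Clo sample, was far from the other ko samples in the red cell genes Hbb-bs (5925 CPM), Hbb-bt (1959), Hba-a1 (3379) and Hba-a2 (2693). It was so too in Vcan (48.97), Il18bp (269.3), Scarb2 (293.8), Cd3g (73.45) and Krt19 (122.4), and low in Cd80 (0). As this sample held 39872 counts in all, the values of Vcan, Cd3g, Krt19 and Cd80 rest on few counts. Ly6Clo ko replicate 3 was high in F10 (138.7), Sdc1 (267.5), Traf1 (1073), Ccl24 (2890), Nr4a1 (970.9), Khk (56.14) and Cd83 (1572).

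Other Ly6Clo ko samples far from their group were replicate 5 in Ly6c2 (61.01 CPM), Plac8 (788.4), Ms4a4c (89.72) and Anpep (187.8), replicate 7 in Ngp (22.96) and Wfdc21 (53.1), replicate 2 in Ndufv2 (300.2), and replicate 1 in Pecam1 (73.78). Among Ly6Clo ctrl samples these were replicate 2 in Chil3 (99.14), F13a1 (39.66), Wfdc21 (39.66) and Slc11a1 (297.4), replicate 4 in Ccl17 (828.4) and Ly6d (87.2), replicate 8 in Sdc1 (224.1), and replicate 1, which was low in Rara (37.73). Replicate 2 held 51630 counts in all, so its values of F13a1 and Wfdc21 rest on few counts. Among Ly6Chi ko samples, replicate 4 was high in Chil3 (776.6), Cadm1 (12.39) and Nfkb1 (351.1), replicate 1 in Tgfbr1 (91.4), replicate 2 in Ngp (129.1) and replicate 3 in Il18bp (119.6). Low values were those of Ly6Chi ko replicate 3 in Rgs1 (162.3), replicate 2 in Mmp2 (0) and replicate 1 in Adgre1 (34.27). The Ly6Chi ctrl group has 3 samples and was not examined this way.

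The difference between the populations itself differed by genotype for Hba-a1 (9.25), Hba-a2 (9.34), Hbb-bs (8.88), Hbb-bt (9.37) and Basp1 (−1.15), as ko minus ctrl of the log2 fold change by edgeR's interaction test. It differed by MHC class II level, as MHCIIhi minus MHCIIlo, for Napsa (1.80), Nrros (1.28), Clec4a3 (2.38), Khk (2.97), Tspan13 (1.67) and Cd83 (1.42). In the other direction these differences were −2.59 for Spp1, −1.50 for Mif, −1.75 for C1qc, −1.50 for Rgs1, −2.63 for Mmp12 and −2.35 for Anpep.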

How the results depend on the processing

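With DESeq2's Wald test 525 genes were higher and 523 lower in Ly6Clo MHCIIhi cells, without a count filter 633 and 458, with a stricter one 315 and 310, and in barcode-matched libraries 351 and 293. Leaving out 1 sample at a time gave 352 to 508 higher and 303 to 499 lower. Counts moved by over 1.5 times with Ly6Clo replicates 1 to 4 alone (216 lower), in ctrl samples alone (28 and 28), and with the replicate number as a block (255 and 179), of which 231 and 173 were also called without it. No label pairs the samples by number. Correlations of same-numbered samples lay between −0.082 and 0.085, and no sample correlated best with its own number. The best correlations with any sample were only 0.037 to 0.187, so these values cannot exclude pairing. The interaction with genotype gave 0 lower genes with size factors, with the first library of each replicate alone and with the block, 68 higher and 19 lower without a filter, and 0 to 89 higher and 0 to 125 lower when 1 sample was left out. The interaction with MHC class II gave 230 lower genes with the Wald test and 206 higher without a filter. Of 142 called genes examined, 105 kept their call in every fit that left out 1 sample and tested them and 37 did not, and 85 kept it under every other setting tried as well, fits within 1 genotype aside. Signs changed as follows, and the cause was not tested. Over the fits that leave out 1 sample the lowest values were −6.14 for Hbb-bt, −5.91 for Hbb-bs, −5.92 for Hba-a1, −5.84 for Hba-a2, −1.34 for Mki67, −1.0 for Gzma, −0.18 for Tspan13 and −0.24 for Thy1, and the highest 1.92 for Tpsb2 and 0.12 for Mif. At the other end, without Ly6Chi ctrl replicate 1, Hbb-bt went to 0.83, Hbb-bs to 0.44, Hba-a1 to 0.88, Hba-a2 to 0.83, Mki67 to 0.49, Gzma to 2.83 and Mif to −0.10. Without libraries under 100000 counts, Hbb-bt went to 0.38, Hba-a1 to 0.34, Hba-a2 to 0.31, Mki67 to 0.42, Gzma to 2.76, Mif to −0.21 and Thy1 to 0.06. In ko samples alone, Hbb-bt went to 1.19, Hbb-bs to 1.20, Hba-a1 to 1.39, Hba-a2 to 1.48, Mki67 to 0.51, Mif to −0.23 and Thy1 to 0.36. In ctrl samples alone, Cdh1 went to 0.11, Basp1 to 0.53, Mcpt1 to −0.28 and Tspan13 to 0.26. Mcpt1 went to −1.01 with Ly6Clo replicates 1 to 4 and to −0.75 with the block, where Gzma went to 0.08. Mif went to −0.01 by the Wald test and without Ly6Clo ctrl replicate 3, and to −0.04 without Ly6Chi ctrl replicate 3. Tspan13 went to 0.04 without a filter, and to 0.02 in the fit of all 8 groups and without Ly6Chi ko replicates 2 or 3. Thy1 went to 0.02 without a filter, 0.10 without Ly6Chi ctrl replicate 4 and 0.04 without Ly6Chi ko replicate 4, and Tpsb2 to −0.17 without Ly6Clo ko replicate 8. Genes with few counts in the Ly6Chi samples, the shallowest at 34362 counts, could be missed at this depth.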
